A study of Mus musculus with 6 samples.

Results

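The NR4A orphan nuclear receptors are 3 paralogous genes, Nr4a1 (Nur77), Nr4a2 (Nurr1) and Nr4a3 (Nor1), and they were taken here by gene name from the authors' deposited table of genes called different between ischemia and sham. All 3 were listed, among 637 genes in all. RNA sequencing had been done on the hippocampus of C57BL/6 mice, described as wild type and 56 days old. The ischemia group held 3 samples after focal middle cerebral artery occlusion, a stroke model that stops blood flow in that vessel, and the sham group held 3 samples after a sham operation; both groups are titled 2 h, and the titles leave unsaid whether that is the occlusion or a time after surgery. Separate animals are not stated for the samples, and the spread behind the authors' p-values may therefore be technical. The table holds 1 mean of normalised reads per gene and group and no value per sample, and library depth is unknown. The 2 columns of means bear the names M2 and S2, and each direction below rests on reading these initials as occlusion and sham.

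NR4A proteins are transcription factors with the fold of hormone receptors but no known classical hormone ligand, so the amount and modification of the protein largely set their activity. They bind the NBRE, an extended receptor site, as single molecules, and Nr4a1 and Nr4a2 can also pair with retinoid X receptors. In neurons the genes are transcribed within minutes of calcium and cyclic AMP signals, through CREB and related factors at cyclic AMP response elements (CREs) in their promoters. In the hippocampus they are best known for a role in long-term memory, and Nr4a2 is also required for the development of midbrain dopamine neurons.

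The promoters of the 3 genes are shown for their matches to the core of the CRE, which differ in position and strand between the genes. The stretches are from RefSeq (GRCm38.p6), 5′ to 3′ on the strand of the gene, and hold no base of an exon of that gene in GENCODE M21. That of Nr4a1 lies inside the gene as annotated there, which begins further upstream at chr15:101254269. The sequence at that upstream start is not shown. Capitals mark the CRE core, CGTCA or its reverse complement TGACG. The first is chr15:101266596-101266845 (plus strand, bases -250 to -1 from the RefSeq start of Nr4a1), the second chr2:57124004-57124253 (minus strand, bases -250 to -1 of Nr4a2) and the third chr4:48045055-48045152 (plus strand, bases -250 to -153 of Nr4a3).
Nr4a1: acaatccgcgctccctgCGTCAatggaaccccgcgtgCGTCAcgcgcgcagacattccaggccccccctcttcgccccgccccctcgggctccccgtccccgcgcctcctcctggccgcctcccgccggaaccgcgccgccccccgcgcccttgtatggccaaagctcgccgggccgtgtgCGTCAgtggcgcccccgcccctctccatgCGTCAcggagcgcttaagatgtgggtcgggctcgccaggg
Nr4a2: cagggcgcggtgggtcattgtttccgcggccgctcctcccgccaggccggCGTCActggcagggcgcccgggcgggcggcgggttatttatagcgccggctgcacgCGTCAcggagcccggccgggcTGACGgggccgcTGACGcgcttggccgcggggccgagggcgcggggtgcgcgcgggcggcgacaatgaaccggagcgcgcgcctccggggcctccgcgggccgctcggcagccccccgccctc
Nr4a3: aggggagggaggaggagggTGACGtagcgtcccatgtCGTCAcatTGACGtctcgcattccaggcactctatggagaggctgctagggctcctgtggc

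All 3 genes rose in ischemia. In the authors' deposited table Nr4a1 averaged 35534 normalised reads in ischemia and 4434 in sham, an 8.01-fold rise at an adjusted p = 2.62e-90. Nr4a3 averaged 25449 normalised reads in ischemia and 4693 in sham in the authors' deposited table, a 5.42-fold rise (adjusted p = 0.000379). Nr4a2 averaged 19927 normalised reads in ischemia and 3511 in sham in the authors' deposited table, a 5.68-fold rise at an adjusted p = 0.0227. The calls are those of the authors at an adjusted p of 0.05, a rule that 1.47% of the 28319 tested genes passed as higher; that number of tested genes was inferred from the deposited p-values. At an adjusted p of 0.01, which 1.27% of the tested genes passed in either direction, Nr4a2 was no longer called. With a Bonferroni correction, which 0.561% passed, Nr4a1 alone of the 3 remained called. The median fold of all genes listed as higher was 2.10 in the authors' deposited table, and all 3 NR4A folds lay above it. In bulk tissue, a change in the number of cells of a type and a change in RNA per cell cannot be told apart.

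**Figure D1:**
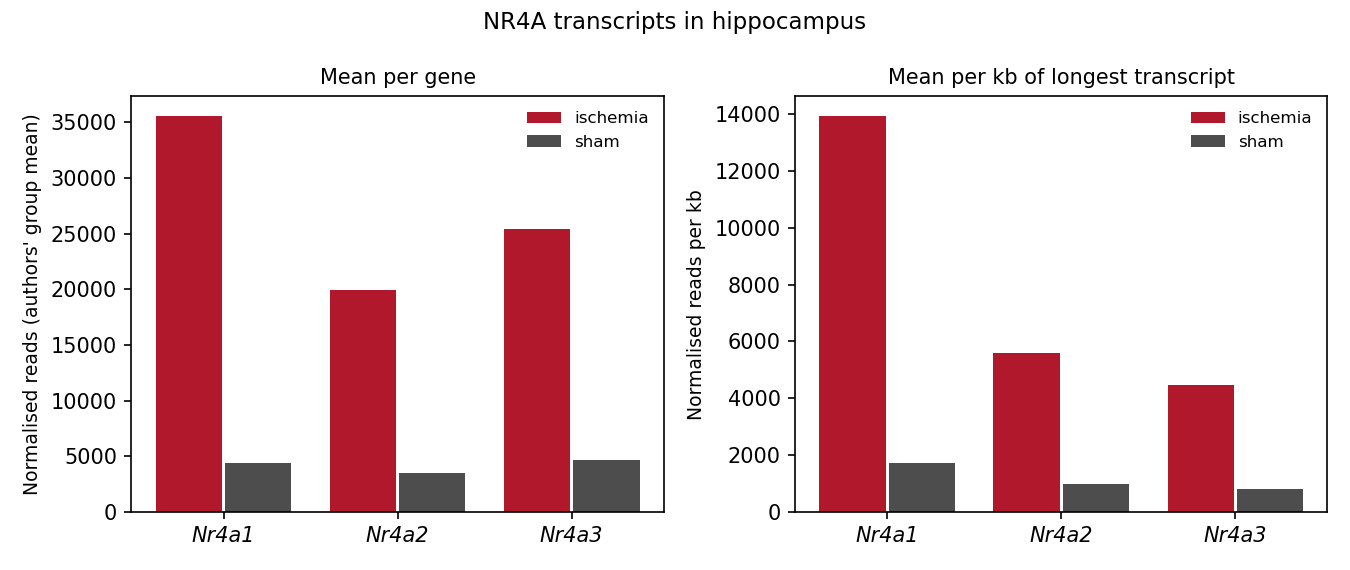
Group means of the NR4A genes, ischemia left of sham in each pair, as normalised reads per gene (left) and per kb of the longest annotated transcript (right). Every ischemia bar stands above its sham bar, and Nr4a1 is the tallest in ischemia on both scales; no error bars are drawn because the deposited values are single means.

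The order of the paralogs depended on the group and on the scale. In ischemia the order of reads per gene was Nr4a1, Nr4a3, Nr4a2. In sham it was Nr4a3, Nr4a1, Nr4a2, with Nr4a1 at 0.945 times Nr4a3. Reads per gene grow with transcript length, and the longest annotated transcripts measure 2553 bases for Nr4a1, 3568 for Nr4a2 and 5720 for Nr4a3. Per kb of these lengths Nr4a1 was first in both groups, at 13919 normalised reads per kb in ischemia and 1737 in sham. Nr4a2 followed with 5585 normalised reads per kb in ischemia and 984 in sham, and Nr4a3 with 4449 in ischemia and 820 in sham. These orders are a description, with no error for a group mean. With the median transcript length in place of the longest, Nr4a3 stood above Nr4a2 in both groups, at 8005 against 7216 normalised reads per kb in ischemia and 1476 against 1271 in sham.

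The family as a whole took a larger share of the listed reads in ischemia. The 3 means sum to 80911 normalised reads in ischemia and 12638 in sham, a ratio of 6.40. This was 2.94% of the reads of all 637 listed genes in ischemia and 0.869% in sham. Within the family, Nr4a1 made up 43.9% of the reads in ischemia and 35.1% in sham. Nr4a2 made up 24.6% in ischemia and 27.8% in sham, and Nr4a3 31.5% in ischemia and 37.1% in sham. Per kb, Nr4a1 was 58.1% of the family in ischemia and 49.0% in sham. These shares are a description with no error, and their shift restates the differences in fold between paralogs given below.

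The folds of the paralogs were close to each other, while their p-values were not. The log2 fold changes in the authors' deposited table were 3.0025 for Nr4a1, 2.50 for Nr4a2 and 2.44 for Nr4a3, a range of 0.56. By p-value, Nr4a1 was second of the 637 listed genes, Nr4a3 was at rank 168 and Nr4a2 at rank 455. By fold they were at ranks 50, 83 and 81 in the same order of genes. A standard error can be worked back from each fold and p-value in the authors' deposited table if the p-value is taken as that of a two-sided normal test; since the sources used here do not name the authors' test, this is an approximation. On the log2 scale this implied standard error was 0.146 for Nr4a1, 0.703 for Nr4a2 and 0.516 for Nr4a3. The implied 95% intervals of the log2 fold change ran from 2.72 to 3.29 for Nr4a1, from 1.13 to 3.88 for Nr4a2 and from 1.43 to 3.45 for Nr4a3.

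The difference between paralogs was within these errors. The log2 fold change of Nr4a1 exceeded that of Nr4a2 by 0.50, with an implied interval from -0.91 to 1.90. It exceeded that of Nr4a3 by 0.56, with an interval from -0.49 to 1.61. Nr4a2 exceeded Nr4a3 by 0.07, with an interval from -1.64 to 1.77. These 3 intervals treat the genes as independent although they were measured in the same samples. Each spans 0 and also sizes of more than 1 on the log2 scale, so they show neither a difference nor equal responses.

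**Figure D2:**
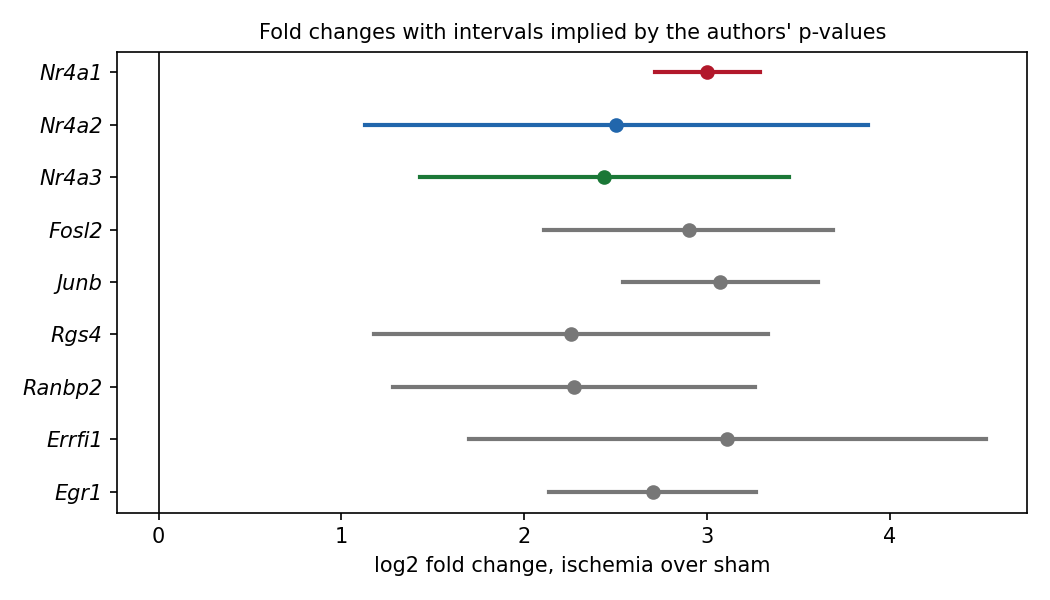
The log2 fold change of ischemia over sham (dots) with the 95% interval implied by the authors' p-value (lines) for the NR4A genes and the 6 other genes nearest to Nr4a1 in their group means. The interval of Nr4a1, from 2.72 to 3.29, is the shortest drawn, and those of Nr4a2 and Nr4a3 contain its dot.

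The implied standard error of Nr4a1 was small for a gene of its level and size of change. There were 79 other listed genes whose mean over both groups lay between 0.5 times the lowest and 2 times the highest NR4A mean, with a median implied standard error of 0.191. All 79 had passed the authors' call, so those with a small fold are present only because their implied standard error is small. Of these, 48 had a larger value than Nr4a1, 6 a larger value than Nr4a2 and 8 a larger value than Nr4a3. Among the 17 of them that were at least 4-fold higher in ischemia, the implied standard errors ran from 0.164 to 0.878 with a median of 0.505, so Nr4a1 lay below all 17. Nr4a2 was larger than 11 of the 17 and Nr4a3 larger than 9. An implied standard error is worked back from a p-value and is not a measured spread between samples. How far the samples differed from each other in Nr4a1, Nr4a2 or Nr4a3 cannot be read from group means.

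**Figure D3:**
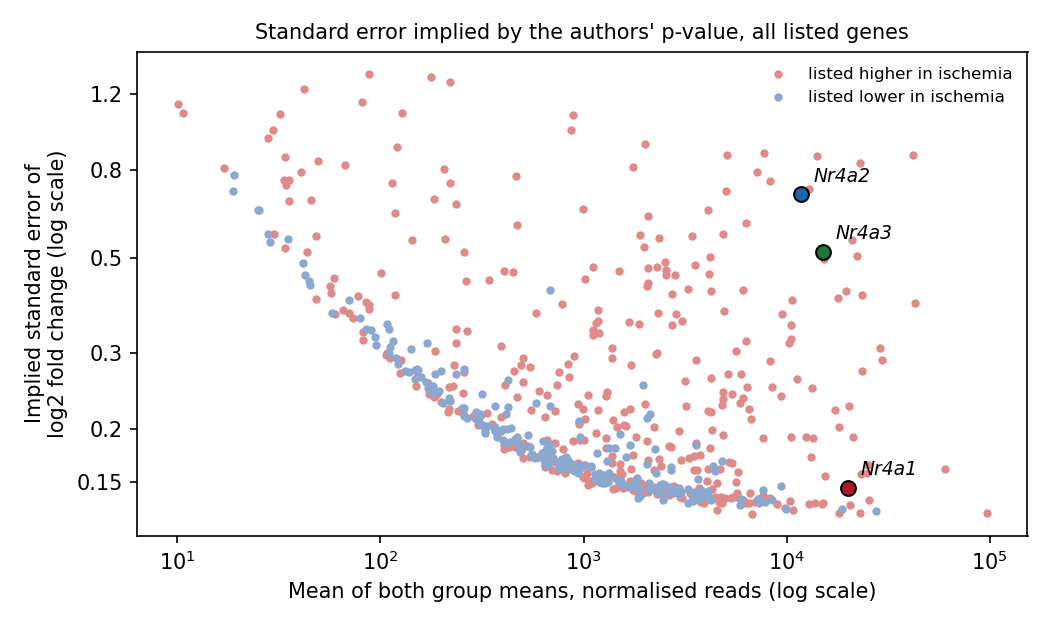
The standard error of the log2 fold change implied by the authors' p-value (vertical, log scale) against the mean of both group means in normalised reads (horizontal, log scale), with 1 dot per listed gene that has a finite fold. Nr4a1 (0.146) lies near the lower edge of the cloud, Nr4a2 (0.703) and Nr4a3 (0.516) near its top at similar levels.

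The genes whose 2 group means were most like those of Nr4a1 included both paralogs when reads per gene were compared, but not per kb or by fold alone. Likeness was the distance over the log2 mean in ischemia and the log2 mean in sham, among 634 other genes with a mean above 0 in sham, and rests on these 2 values per gene. Fosl2, an AP-1 subunit, was nearest at a distance of 0.18, with 31660 normalised reads in ischemia and 4244 in sham in the authors' deposited table. Junb, another AP-1 subunit, followed at 0.29, and Nr4a3 was next at 0.49. The G protein signalling brake Rgs4 lay at 0.71, the nuclear pore protein gene Ranbp2 at 0.78, and Nr4a2 was in sixth place at 0.90. The growth factor receptor inhibitor Errfi1 lay at 0.96 and the zinc finger factor Egr1 at 0.97. Reads per gene contain transcript length. Per kb, Egr1 was nearest to Nr4a1, Nr4a2 was at rank 15 and Nr4a3 at rank 43 of 561 genes, and 3 of the 8 nearest genes were shared with the first measure. By fold alone, Nr4a2 was at rank 51 and Nr4a3 at rank 53 of the 634 genes in likeness to Nr4a1, and 2 of the 8 nearest genes were shared with the first measure. In order of fold, the genes next above Nr4a1 were Junb (8.42-fold), the small GTPase gene Gem (8.49-fold) and the urokinase receptor gene Plaur (8.60-fold) in the authors' deposited table. Among those next below were Gm17024 (7.75-fold) and the immediate-early gene Ier2 (7.62-fold) in the authors' deposited table.

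The NR4A folds are set beside those of other families of activity-induced factors, which were picked for this view with their values known. The highest NR4A fold was 1.48 times the lowest. Against 1.47% of all tested genes, 3 of the 4 EGR genes were listed as higher, and their highest fold was 2.78 times the lowest, from 6.51 for Egr1 to 18.1 for Egr2 in the authors' deposited table. Of 7 FOS and JUN genes, 6 were listed as higher, with folds from 2.53 for Jund to 46.4 for Fosb in the authors' deposited table. The difference between families was not tested, and unlisted genes have no value.

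Other members of the nuclear receptor superfamily were listed at close to the share of all tested genes. Of its 49 genes, 4 were listed, all as higher, and 3 of these are the NR4A genes. Of the other 46, the 1 listed gene, Rora, an orphan receptor that activates clock genes, makes up 2.17%, against 2.25% of all tested genes called in either direction. Rora averaged 2431 normalised reads in ischemia and 1620 in sham, a 1.501-fold rise by the authors' deposited table (adjusted p = 0.00612). With an absolute log2 fold change of 1 or more also required, which 0.957% of all tested genes met, the 3 NR4A genes were the superfamily members called. The retinoid X receptors, with which Nr4a1 and Nr4a2 pair, were not listed. Absence from the table gives neither the level of a gene nor evidence that it was unchanged.

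Among genes that act on NR4A transcription and on NR4A proteins, a few were listed. Of 33 genes of the signals that reach NR4A promoters, 2 rose and 0 fell, which is 6.06% against 1.47% of all tested genes listed as higher. Crem, whose internal promoter yields a repressor of CRE-driven transcription, averaged 1966 normalised reads in ischemia and 796 in sham in the authors' deposited table (2.47-fold, adjusted p = 3.32e-11). Srf, the serum response factor that drives many immediate-early genes, averaged 6599 normalised reads in ischemia and 3396 in sham in the authors' deposited table (1.94-fold, adjusted p = 2.13e-09). Of 20 coregulators of nuclear receptors, 0 rose and 1 fell, against 0.784% of all tested genes that fell. It was Ep300, a histone acetyltransferase that also works with CREB, at 2762 normalised reads in ischemia and 4089 in sham in the authors' deposited table (1.48-fold lower, adjusted p = 0.00480). Of 21 genes reported as NR4A targets in various tissues, 1 was listed as higher, which is 4.76% against 1.47% of all tested genes, and a single gene sets this share. This was the neurotrophin gene Bdnf, at 14342 normalised reads in ischemia and 2231 in sham in the authors' deposited table (6.43-fold, adjusted p = 0.0233). Bdnf is also a CREB target and belongs to the next list as well, and its implied standard error was 0.756, close to that of Nr4a2.

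Genes picked as induced by activity through CREB, like NR4A genes, were listed more often. The part of CREB in their rise was not tested. Of 30 such genes, chosen without the NR4A genes, 22 rose, 0 fell and 8 were not listed, which is 73.3% against 1.47% of all tested genes. Their median was 8.54-fold in the authors' deposited table, where the 3 NR4A genes have a median of 5.68-fold and all genes listed as higher a median of 2.10-fold. The 6 with the smallest p-values were the neuronal factor Npas4 (76.5-fold), the MAP kinase phosphatase Dusp1 (5.27-fold), the small Maf factor Maff (13.4-fold), the stress gene Gadd45g (11.1-fold), and the AP-1 subunits Fos (37.4-fold) and Junb (8.42-fold) in the authors' deposited table. Npas4 was the 1 gene with a smaller p-value than Nr4a1. The list was drawn up with results of these data known, so its count is a description.

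The 3 NR4A promoters, printed above, each held 4 CRE cores in the RefSeq window of 300 bases, from 250 before to 50 after the start, with both strands searched and overlapping matches counted once. In Nr4a1 all 4 lay on the strand of the gene and all 4 were preceded by TG, as TGCGTCA. They began at -233, -213, -69 and -40 from the start. In Nr4a2 they began at -200, -144, -123 and -111, the first pair on the strand of the gene and the others on the opposite strand. In Nr4a3 they began at -231, -213, -205 and -147, and the second of them was the 1 on the strand of the gene; the last lies in an annotated exon and is not printed.

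**Figure D4:**
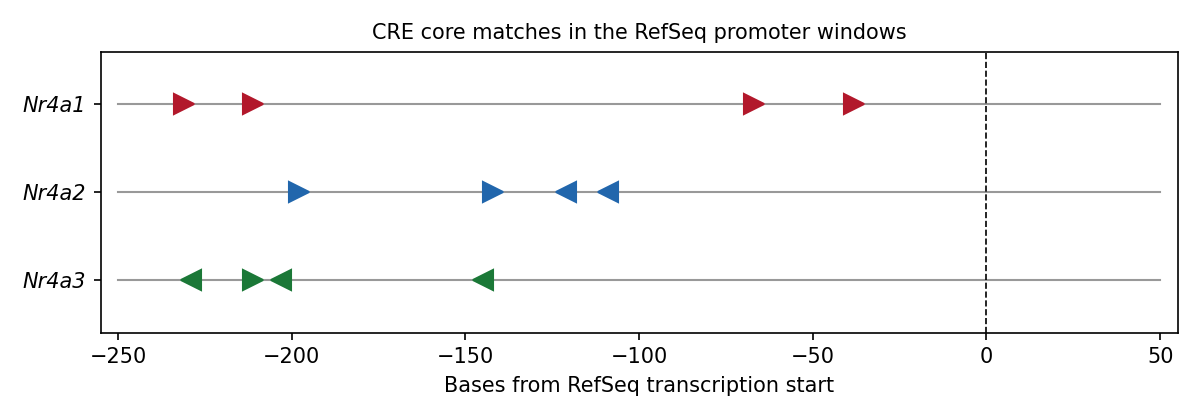
CRE core matches (triangles, pointing right on the strand of the gene and left on the opposite strand) in the RefSeq promoter windows, in bases from the transcription start (dashed line). Each gene has 4 matches, all upstream of the start; in Nr4a1 they form a pair at -233 and -213 and a pair at -69 and -40.

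Such windows were rare. At least 1 CRE core was found in 20.8% of 32817 RefSeq windows and at least 4 in 0.113% of them, a threshold chosen with the NR4A count known. The windows with at least 4 belong to 34 of 26994 genes, and these 34 include all 3 NR4A genes. Of the other 31, the mitochondrial genes Coq10b and Slc25a3 and the telomere protein gene Tinf2 were listed as higher and 0 as lower. Among all 26994 genes with a window, 275 were listed as higher and 151 as lower. The GC content of the NR4A windows was 72.3% for Nr4a1, 81.7% for Nr4a2 and 64.7% for Nr4a3, against a median of 52.7% over all windows. Among the 9668 windows within 5 percentage points of the NR4A range of GC content, 31.6% held at least 1 core and 29 windows at least 4. The single window of the 32817 with 4 matches to TGCGTCA was that of Nr4a1.

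The CRE core was also found in many promoters of the other listed genes. At least 1 was present for 157 of 275 genes listed as higher that have a window (57.1%), for 41 of 151 genes listed as lower (27.2%) and for 23.0% of all genes with a window. These shares were not matched for GC content. Nor were they matched for windows per gene, with 361 windows for the 275 higher genes and 32817 for all 26994 genes. Of 20 genes listed as higher, from the CREB list and from those most like Nr4a1, that have a window, 17 held at least 1 core and 0 held 4. The 8 unlisted genes of the CREB list are not among these 20. That list was picked for CREB and with results of these data known, so the count of 17 is a description. The full CRE, TGACGTCA, was in no NR4A window, in 8.59% of the 361 windows of genes listed as higher and in 1.79% of all windows. The CArG box bound by Srf was in no NR4A window, in 3.05% of the windows of genes listed as higher and in 1.63% of all windows. TGCGTCA was in 8.03% of the windows of genes listed as higher, that of Nr4a1 included, and in 2.11% of all windows. The NBRE, AAAGGTCA, the site that NR4A proteins bind, was in no NR4A window and in 1.51% of all windows, and 1 of the 361 windows of genes listed as higher held it. A match says that the letters are present and does not show that a factor was bound.

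The transcripts of the paralogs share only short exact runs of bases. Whether the deposited counts kept the paralogs apart was not tested. In GENCODE M21 (GRCm38) Nr4a1 lies at chr15:101254269-101274795 on the plus strand, Nr4a2 at chr2:57106830-57124003 on the minus strand and Nr4a3 at chr4:48045153-48086447 on the plus strand, and 0 exons of other genes overlap theirs. Their longest complete coding sequences hold 601, 598 and 627 codons in the same order. The longest runs of bases that any pair of their transcripts share lie in the coding sequence, and they are shown because a read longer than such a run cannot match both genes exactly. Nr4a1 shares 14 bases with Nr4a2 and 24 with Nr4a3, and Nr4a2 shares 27 with Nr4a3.
Nr4a1 and Nr4a2: tgtgagggctgcaa
Nr4a1 and Nr4a3: gagggctgcaagggcttcttcaag
Nr4a2 and Nr4a3: gcaaataaaaactgcccagtggacaag
Runs of 36 bases that also occur in a transcript of a gene outside the family started at 0% of positions of the longest Nr4a1 transcript, 0.453% of the longest Nr4a2 transcript and 0.493% of the longest Nr4a3 transcript. The sources used here give no read length, and the identifiers of the authors' deposited table come from a BALB/cJ annotation, so these lengths are those of the GRCm38 transcripts.

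Few markers of other cells and of hippocampal neurons were listed, at most 3 in any list of 12. Of 12 monocyte and macrophage markers, 12 T cell markers and 12 choroid plexus markers, 0 were listed, against 2.25% of all tested genes called in either direction. Lists of 12 genes are too short to tell 0 from that share. Genes of myeloid cells outside these lists, named after their values were seen, were listed as higher in the authors' deposited table: the lipopolysaccharide co-receptor gene Cd14 by 2.76, the complement receptor gene C5ar1 by 1.85, and Ly86 by 0.61 on the log2 scale. Of 12 neutrophil markers 2 (16.7%, against 1.47% of all tested genes) rose by the authors' deposited table. S100a8 rose 6.78-fold (authors' adjusted p = 0.0274) and S100a9 12.9-fold (authors' adjusted p = 0.034), and neither was called at an adjusted p of 0.01. The means of both genes were low, with S100a8 at 71.1 normalised reads in ischemia and 10.5 in sham. S100a9 stood at 59.6 normalised reads in ischemia and 4.64 in sham. Of 12 microglia markers Fcrls alone was listed, 1.47-fold higher by the authors' deposited table (8.33%, against 1.47% of all tested genes). Of 12 endothelial markers Sox18 alone was listed, 2.16-fold lower by the authors' deposited table (8.33%, against 0.784% of all tested genes). A single gene sets each of these 2 shares. Of 12 markers of hippocampal neurons 3 fell (25.0%, against 0.784% of all tested genes), the dentate granule cell genes Lct (2.92-fold lower) and Dsp (2.83-fold lower) and the neuronal factor Neurod2 (1.44-fold lower) in the authors' deposited table. The part of these cells in the NR4A values was not tested, and the tissue label could not be checked against markers because uncalled genes have no value in the table.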

How the data were processed

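The members, gene lists and comparisons were chosen with earlier results of these data known. Hippocampal RNA was extracted with Trizol and libraries followed Illumina protocols, per the labels' protocols. Bowtie 0.12.2 and the build mm8 are named, with no role, per the submitters' processing notes; the sources used here do not name the counter, strand use, normalisation or test. A single table was deposited by the authors. Its read signal is a normalised read count averaged over the samples of a group, per the file headers and values. The log2 fold change, p-value and adjusted p-value are the authors' own, per the file headers; the fold equals the ratio of the means without a pseudocount. The table has 0 columns per sample, so limma, leave-one-out and replicate-block fits could not be run. The number of tested genes was taken as the one whose Benjamini-Hochberg adjustment returned the deposited values in 636 of 637 rows, a search tested on simulated data. Levels per kb used GENCODE M21 transcript lengths by symbol (564 genes, 88.5%). Promoters came from RefSeq GRCm38.p6; protein sequences were not used here. The genes named are the NR4A genes, the 8 genes nearest to Nr4a1, its 3 neighbours in fold on each side, and up to 6 genes per list with the smallest p-values; 1 gene under this rule is not reported here. Computation used Python 3.11.15, numpy 2.4.6, pandas 2.3.3 and scipy 1.17.1, and plots with matplotlib 3.10.9.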

Additional observations from a re-analysis of the deposited data

How the results depend on the processing

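No paired analysis was possible because the deposited table holds group means only; for the same reason no sample could be left out. Pseudocounts of 1 and 10 normalised reads changed the log2 fold change of each NR4A gene by less than its implied standard error. Shifting all folds by the median of listed genes in no gene list (0.64 on the log2 scale) gave 2.37 for Nr4a1 and 1.80 for Nr4a3, and 1.87 for Nr4a2; that shift takes called genes as its zero. With a Bonferroni correction over 28319 genes, chosen after the data were seen, Nr4a1 kept its call (adjusted p = 5.24e-90), while Nr4a3 (log2 fold change 2.44, adjusted p = 0.0637) and Nr4a2 (2.50, adjusted p = 1.0) lost it; 0.561% of all tested genes passed. At an adjusted p of 0.01 Nr4a2 (2.50, adjusted p = 0.0227) lost its call. The rank of Nr4a1 in fold was 39 among genes with a mean of at least 50 normalised reads and 46 among genes with a symbol, against 50. Listed nuclear receptor genes numbered 3 at an adjusted p of 0.01 and 3 at an absolute log2 fold change of 1 or more, against 4. Per kb of median transcript length, Nr4a1 stood at 21088 normalised reads in ischemia and 2631 in sham, and Nr4a3 at 8005 in ischemia and 1476 in sham. Per kb of all exons together, Nr4a1 stood at 10127 in ischemia and 1264 in sham, and above Nr4a2, which stood at 4909 in ischemia and 865 in sham. The CRE core counts were 4 per gene also in the upstream 250 bases alone. Depth is unknown, so the counting error of single values cannot be given.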
